A study of Rattus norvegicus with 6 samples.

Results

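The genes described here store iron, carry it across membranes and through plasma, or sense it inside the cell. They are the 10 rat genes Fth1, Ftl1, Tfrc, Slc40a1, Slc11a2, Tf, Cp, Heph, Ireb2 and Aco1, given as a list of symbols. Array probes were assigned to them through the messenger RNA accession of each probe. All 10 genes were measured, with 27 probes of the 41310 that were tested, and they make up 10 of 32663 gene entries. The animals were male Sprague-Dawley rats, bought at 5 weeks of age, and the tissue was renal cortex. The anthraquinone group held 3 rats given the tricyclic quinone anthraquinone at 1000 mg/kg/day for 4 weeks, and the control group held 3 rats given corn oil for 4 weeks. The comparison asks how renal cortex transcripts differ after that dosing.

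Ferritin is a hollow shell built of heavy chains, encoded by Fth1, which oxidise iron, and light chains, encoded by Ftl1, which help to lay it down as mineral. Iron enters cells bound to transferrin through the transferrin receptor, leaves the endosome through the divalent metal transporter Slc11a2, and leaves the cell through ferroportin, the product of Slc40a1. The proteins of Ireb2 and Aco1 bind iron-responsive elements in messenger RNA when iron is low, which blocks translation of ferritin and ferroportin and stabilises the messenger of the transferrin receptor. Much of this control therefore acts on translation, which arrays of RNA do not read. The proximal tubule, the main part of the renal cortex, takes up filtered transferrin from the urine side. In mammals the transcription factor Nrf2, which responds to quinones, induces ferritin chains and ferroportin as well as the haem-degrading enzyme gene Hmox1.

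RNA of every animal went on a separate 1-colour array. Levels are given as the log2 signal of a probe minus the 75th percentile of that array, so a value of 0 is the brightness below which 75% of the probes of that array lie, and levels of different probes are not compared. The 75th percentile itself lay between 844 and 880 signal units on the anthraquinone arrays and between 903 and 1191 on the corn oil arrays. Corn oil replicate 1 stood on a slide of its own with a scan date of its own, and the other 5 arrays shared 1 slide. A comparison within that slide is thus the comparison without corn oil replicate 1. All 8 proximal tubule markers, among them the phosphate transporter gene Slc34a1, were well above background on every array. Their summed levels were 1602 to 1969 times the 75th percentile in anthraquinone and 1820 to 2031 in corn oil rats. Their median log2 change was 0.07. Kap was the only marker of the 8 whose groups did not overlap, lower with anthraquinone by -0.46 on the log2 scale. The number of arrays limits the precision, and p-values measure the spread between these animals.

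None of the 10 genes passed the test over all entries (limma, Benjamini-Hochberg adjusted p under 0.05), where 0.0276% of all entries passed. At an unadjusted p under 0.05, 2 of the 10 were higher with anthraquinone, Ftl1 and Cp, and 0 were lower, against 9.47% higher and 7.65% lower among all entries. The groups did not overlap for Ftl1 and Cp, which were higher with anthraquinone, and for Slc40a1, which was lower. Among all entries the groups did not overlap in 15.0% on the higher side and in 10.2% on the lower side. Values were positive for 9 of the 10 genes, with a median log2 change of 0.16, against a median of 0.01 over all entries. In whole tissue, fewer cells of a type and less RNA per cell cannot be told apart. The changes ranged from -0.16 for Slc40a1 to 0.36 for Tf.

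**Figure D1:**
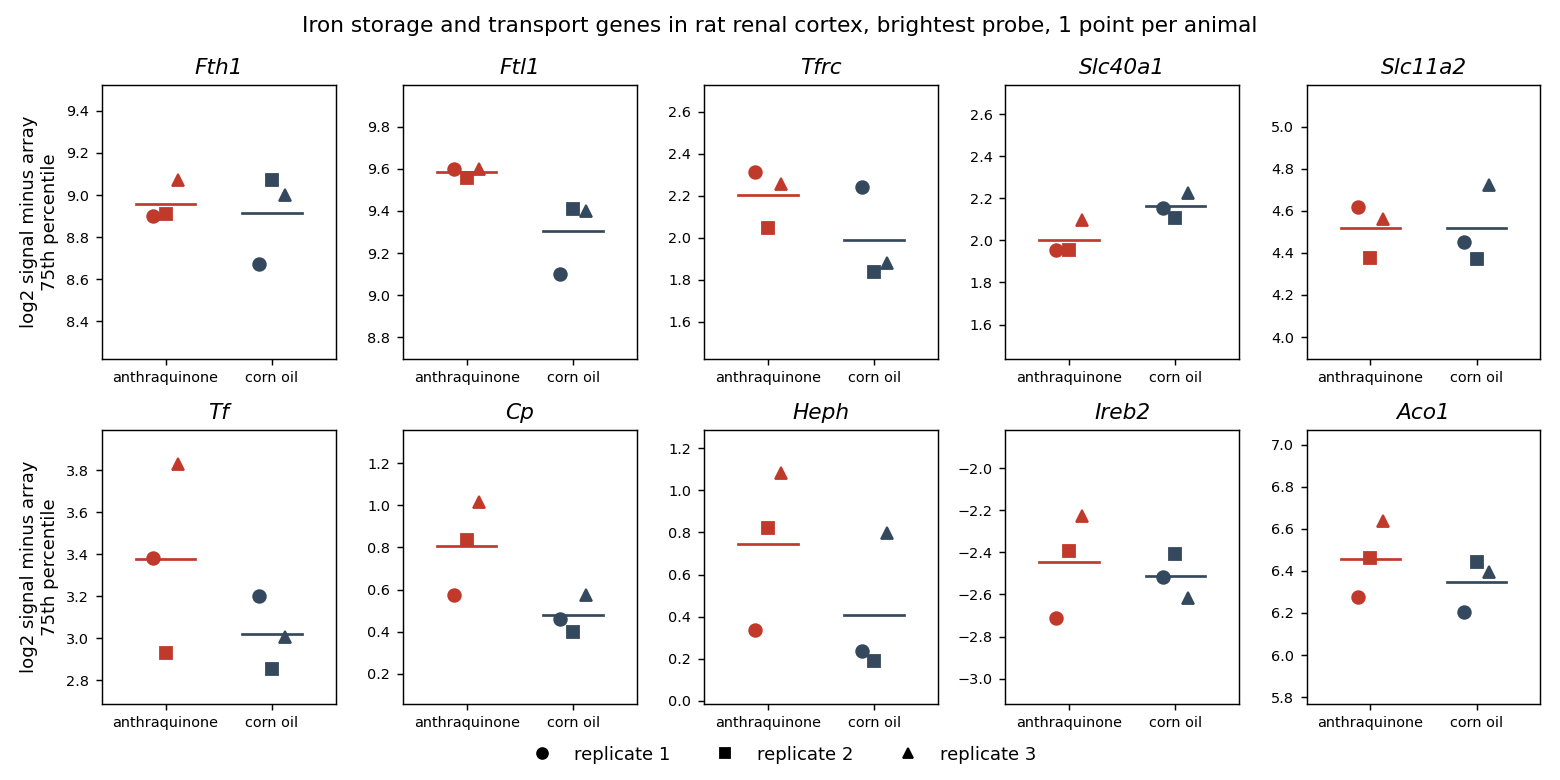
Level of each gene on its brightest probe, as log2 signal minus the array's 75th percentile, with 1 point per animal and a line at each group's mean. Every panel spans the same range on its axis. The 3 anthraquinone animals lie above all corn oil animals for Ftl1 and Cp and below all of them for Slc40a1.

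Among the storage genes, the light chain of ferritin was higher in every anthraquinone rat and on every probe, while the heavy chain was not separated from the controls on any probe. On the brightest of its 5 probes Ftl1 had log2 levels of 9.60, 9.56 and 9.60 in anthraquinone replicates 1, 2 and 3, against 9.10, 9.41 and 9.40 in corn oil replicates 1, 2 and 3. The anthraquinone animals lay close together and the corn oil animals were spread, with replicate 1 lowest. The mean was 9.58 ± 0.02 with anthraquinone and 9.30 ± 0.18 with corn oil (SD, n = 3 each). That is a log2 change of 0.28 ± 0.10 (SE), or 1.22-fold, with limma adjusted p = 0.258. Within the shared slide the change was 0.18 (limma adjusted p = 0.361), and the anthraquinone animals remained above both corn oil animals.

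The other 4 Ftl1 probes gave larger differences, and the size followed the brightness of the probe. From the brightest probe to the dimmest, the log2 changes were 0.28, 0.39, 0.45, 0.51 and 0.52. The dimmest probe, A_44_P114869, had log2 levels of 7.73, 7.76 and 7.71 with anthraquinone and 7.14, 7.23 and 7.28 with corn oil, a change of 0.52 ± 0.07 (SE, limma adjusted p = 0.103 over all probes). All 5 probes had an unadjusted p under 0.05, against 17.3% of all probes tested, and 0 passed after adjustment, against 0.0339% of all probes. The groups did not overlap on any of the 5, in the same direction, against 14.5% of all probes on that side. Of the 118 genes with at least 5 tested probes, 11 had all their probes higher without overlap, or 9.32%. Within the shared slide the 5 changes ranged from 0.18 to 0.48 and the groups still did not overlap on any of them.

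The brightness of these spots came near the upper end of the scanner's range. The median spot signal of the brightest Ftl1 probe was 81.4 to 91.2% of the scanner's saturation value, and that of the dimmest was 18.3 to 25.6%. None of the spots was marked as saturated, and the part that brightness had in the smaller change of the bright probes was not tested. After quantile normalization the 5 changes kept their direction but ranged from 0.15 to 0.32. The mean of the 5 probes, taken as the gene's value, gave 0.43 (limma adjusted p = 0.156). Ferritin genes have processed copies elsewhere in rodent genomes, and probes of the 2 chains were not checked against such copies.

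Fth1 was measured by 4 probes and its groups overlapped on all of them. The brightest had log2 levels of 8.90, 8.91 and 9.07 with anthraquinone, against 8.67, 9.07 and 9.00 with corn oil. Corn oil replicate 1 was again the lowest, and the other 5 animals lay together. The change was 0.04 ± 0.13 (SE, limma adjusted p = 0.889), with a 95% interval from -0.26 to 0.35, and its sign was turned by quantile normalization (-0.11), within the shared slide (-0.08) and without anthraquinone replicate 3 (-0.01). Over the 4 probes the changes were 0.03 to 0.07. An interval of that width does not show that the heavy chain was the same in both groups.

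The changes of the 2 chains were set beside each other after their values were seen, so the difference is a description with no test. The change averaged over the Ftl1 probes exceeded that averaged over the Fth1 probes by 0.37 on the log2 scale. It did so by 0.37 after quantile normalization, and by 0.24 when the brightest probe stood for each gene.

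**Figure D2:**
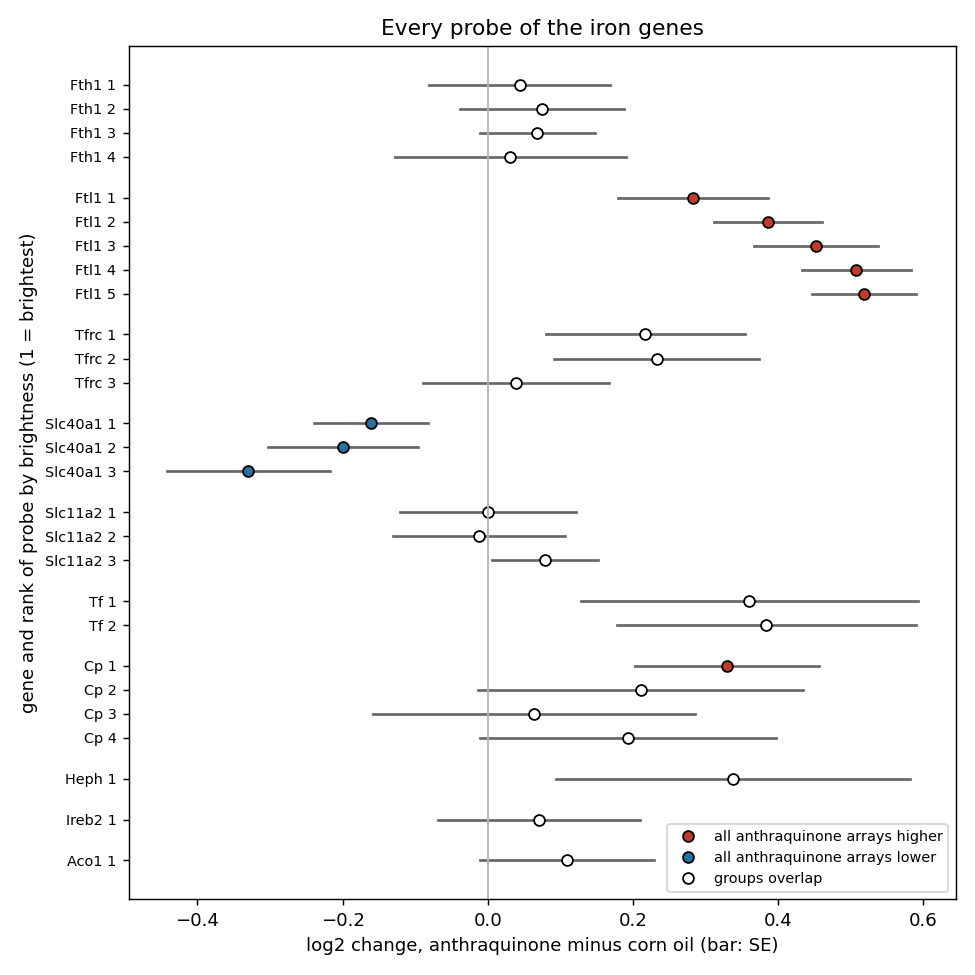
Log2 change of each of the 27 probes, anthraquinone minus corn oil, with bars for the standard error. Probes of a gene are numbered from the brightest. The 5 Ftl1 probes lie at 0.28 to 0.52 and the 4 Fth1 probes at 0.03 to 0.07, and all 3 Slc40a1 probes lie below 0.

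Red cell precursors also make ferritin and the transferrin receptor, and markers of red cells moved with the treatment. Of 14 such markers 11 were tested, all 11 had positive changes with a median of 0.66, and 0 passed the test. The groups did not overlap for 8 of the 11, higher with anthraquinone, against 15.0% of all entries on that side. Alas2, which encodes the erythroid enzyme that opens haem synthesis, had log2 levels of 1.94, 1.33 and 1.20 with anthraquinone and 0.50, 0.56 and 0.83 with corn oil. The summed level of the 11 markers was 1411 to 1963 times the 75th percentile in anthraquinone and 902 to 1181 in corn oil rats. Globin genes have near-identical copies whose probes cannot be told apart. The globin entries Hba-a1, Hba-a3, Hbb, Hbb-b1 and Hbb-bs are among the 8, so they are not separate observations. They also make up most of the summed level. The part of red cell RNA in the ferritin and transferrin receptor values was not tested.

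Uptake genes showed no separation of the groups. Tfrc, which encodes the transferrin receptor, had log2 levels of 2.31, 2.04 and 2.26 with anthraquinone and 2.24, 1.84 and 1.88 with corn oil on its brightest probe. Corn oil replicate 1 lay among the anthraquinone animals. The change was 0.22 ± 0.14 (SE, limma adjusted p = 0.458), and leaving out a corn oil animal gave 0.34 for replicate 1 and 0.14 for replicate 2. The other Tfrc probes gave 0.23 and 0.04. Slc11a2, the divalent metal transporter gene, had levels of 4.62, 4.37 and 4.56 with anthraquinone and 4.45, 4.37 and 4.72 with corn oil. Its group means were equal to 2 decimals, 4.52 ± 0.13 with anthraquinone and 4.52 ± 0.18 with corn oil (SD, n = 3 each), with a 95% interval of the difference from -0.30 to 0.30 and a sign that changed with the scaling. Its other probes gave -0.01 and 0.08.

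Slc40a1, which encodes the iron exporter ferroportin, was lower in every anthraquinone rat on each of its 3 probes, without passing the test. The brightest probe had log2 levels of 1.95, 1.95 and 2.10 with anthraquinone, against 2.16, 2.10 and 2.22 with corn oil. The gap between the groups was narrow, with anthraquinone replicate 3 next to corn oil replicate 2. The mean was 2.00 ± 0.08 with anthraquinone and 2.16 ± 0.06 with corn oil (SD, n = 3 each), a change of -0.16 ± 0.08 (SE, limma adjusted p = 0.352). The dimmer probes gave -0.20 and -0.33, and the dimmest, A_43_P13162, had levels of -1.76, -1.85 and -1.83 with anthraquinone and -1.29, -1.69 and -1.48 with corn oil. On all 3 probes the groups did not overlap, against 10.7% of all probes on the lower side, and 1 probe had an unadjusted p under 0.05. Of 1905 genes with at least 3 tested probes, 50 had all their probes lower without overlap, or 2.62%. All 3 changes stayed negative with each array left out, within the shared slide and after quantile normalization, between -0.43 and -0.10.

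Macrophages that recycle red cells are rich in ferroportin, and the values of macrophage markers stand beside this result. Of 11 markers 7 were tested, with 5 positive changes, and their summed level was 19.5 to 25.9 in anthraquinone and 17.8 to 19.5 in corn oil rats. The complement genes C1qa, C1qb and C1qc were higher without overlap, by 0.39, 0.31 and 0.32, against 15.0% of all entries on that side. These genes also make up most of the summed level. The receptor gene Csf1r was lower without overlap, by -0.23 on the log2 scale, against 10.2% of all entries on the lower side. The groups overlapped for Cd68 (0.10), Adgre1 (-0.26) and Mrc1 (0.19). Cd163, Marco, Cd5l and Vsig4, which mark resident and iron-recycling macrophages, were not well above background on all arrays of either group. The part of macrophages in the Slc40a1 values was not tested.

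The 250 bases before the annotated start of Slc40a1 are shown because it is the member that was lower on every probe, with matches to the GC box GGGCGG on either strand in capitals. The sequence is from RefSeq, build GRCr8, minus strand, at chr9:55543461-55543710.
Slc40a1: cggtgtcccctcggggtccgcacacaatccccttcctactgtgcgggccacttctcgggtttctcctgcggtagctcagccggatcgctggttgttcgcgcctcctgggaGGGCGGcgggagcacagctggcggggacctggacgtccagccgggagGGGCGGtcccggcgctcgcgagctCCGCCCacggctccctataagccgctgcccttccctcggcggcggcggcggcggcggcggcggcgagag
The window holds 3 such matches, and 30.5% of 33469 RefSeq windows of the same length hold at least 1. So do 4 of the 9 windows of members, among them Slc11a2 with 4 matches, Aco1 with 3 and Ireb2 with 2, whose groups overlapped. The core of the antioxidant response element, TGACNNNGC, to which Nrf2 binds, was searched on both strands of these 250 bases. It was found in none of the 9 windows of the 8 members with an entry (Tfrc, Slc40a1, Slc11a2, Tf, Cp, Heph, Ireb2 and Aco1), and in 10.1% of all windows. The loop of the iron-responsive element, CAGTGN, was searched on the transcript strand of the first 50 bases after the start. None of the 9 windows held it, against 7.26% of all windows, and these letters may lie farther into the transcript. Fth1 and Ftl1 had no entry, so neither search covered the ferritin chains. Bases farther upstream or downstream were not searched, so these counts do not show whether a member has either element.

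Tf and Heph had the largest standard errors of the 10 genes. Tf, which encodes transferrin, had log2 levels of 3.38, 2.93 and 3.83 with anthraquinone, against 3.20, 2.85 and 3.01 with corn oil. The groups overlapped, with anthraquinone replicate 3 highest and replicate 2 inside the corn oil range. The mean was 3.38 ± 0.45 with anthraquinone and 3.02 ± 0.17 with corn oil (SD, n = 3 each), and the change of 0.36 ± 0.23 (SE, limma adjusted p = 0.466) became 0.14 without anthraquinone replicate 3 and 0.59 without anthraquinone replicate 2. The second Tf probe gave 0.38.

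Cp encodes ceruloplasmin, a ferroxidase that loads iron onto transferrin. Its brightest probe had log2 levels of 0.58, 0.84 and 1.01 with anthraquinone and 0.46, 0.40 and 0.58 with corn oil. Anthraquinone replicate 1 and corn oil replicate 3 differed only in the third decimal. The mean was 0.81 ± 0.22 with anthraquinone and 0.48 ± 0.09 with corn oil (SD, n = 3 each), a change of 0.33 ± 0.13 (SE), or 1.26-fold, with limma adjusted p = 0.271. On the other 3 Cp probes the groups overlapped and the changes were 0.21, 0.06 and 0.19. The mean of its probes gave 0.20 (limma adjusted p = 0.621).

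Cp is shown with its upstream sequence because its brightest probe separated the groups. The 250 bases before its start, RefSeq GRCr8, plus strand, at chr2:104368420-104368669, have the TATA box TATAAA in capitals.
Cp: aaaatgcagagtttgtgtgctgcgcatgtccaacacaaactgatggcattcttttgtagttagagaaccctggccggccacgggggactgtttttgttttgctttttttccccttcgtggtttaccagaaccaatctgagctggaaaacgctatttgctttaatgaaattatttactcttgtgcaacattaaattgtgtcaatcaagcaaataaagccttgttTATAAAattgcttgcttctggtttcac
TATAAA was searched on the transcript strand of the same 250 bases. Cp and Tf each had 1 match, the other 7 member windows had 0, and 8.06% of all windows had at least 1.

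Heph encodes hephaestin, a membrane-bound ferroxidase that works with ferroportin. Its only probe had log2 levels of 0.34, 0.82 and 1.08 with anthraquinone and 0.24, 0.19 and 0.80 with corn oil. Corn oil replicate 3 lay among the anthraquinone animals. The change of 0.34 ± 0.24 (SE, limma adjusted p = 0.514) depended on single animals. It was 0.54 when anthraquinone replicate 1 was dropped, 0.17 when anthraquinone replicate 3 was dropped, and 0.53 when corn oil replicate 3 was dropped. On the brightest probes anthraquinone replicate 3 was the highest of the 6 animals for Tf, Cp and Heph, and also for Aco1 and Ireb2. For Ftl1 it equalled anthraquinone replicate 1 to 2 decimals (9.60), and anthraquinone replicate 2 was highest on the other Ftl1 probes. Hepatocytes are the main source of plasma transferrin and ceruloplasmin, and 4 of 8 hepatocyte and plasma protein markers were tested. Their summed level was 1.02 to 1.25 in anthraquinone and 1.54 to 1.71 in corn oil rats. Apob had a change of -1.27 without overlap. The groups overlapped for Apoa1 (-1.37), Fgb (-0.17) and Ahsg (-0.04), and Apoa1 was highest in corn oil replicate 1, at -1.71, against -5.65 and -5.23 in replicates 2 and 3. Alb, Ttr, Serpina1 and Tat were not well above background on all arrays of either group. The part of such cells in the Tf and Cp values was not tested.

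The groups overlapped for both iron sensors. Aco1, which encodes iron regulatory protein 1, an enzyme that doubles as cytosolic aconitase, had log2 levels of 6.27, 6.46 and 6.63 with anthraquinone and 6.20, 6.44 and 6.40 with corn oil. The change was 0.11 ± 0.12 (SE, limma adjusted p = 0.681), and it was -0.06 after quantile normalization, 0.20 without anthraquinone replicate 1 and 0.02 without anthraquinone replicate 3. Ireb2, which encodes iron regulatory protein 2, had levels of -2.71, -2.39 and -2.23 with anthraquinone and -2.52, -2.41 and -2.62 with corn oil. The anthraquinone animals lay on both sides of the corn oil animals, and the change was 0.07 ± 0.14 (SE, limma adjusted p = 0.833), or -0.04 without anthraquinone replicate 3. The 95% intervals were -0.18 to 0.40 for Aco1 and -0.27 to 0.41 for Ireb2.

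**Figure D3:**
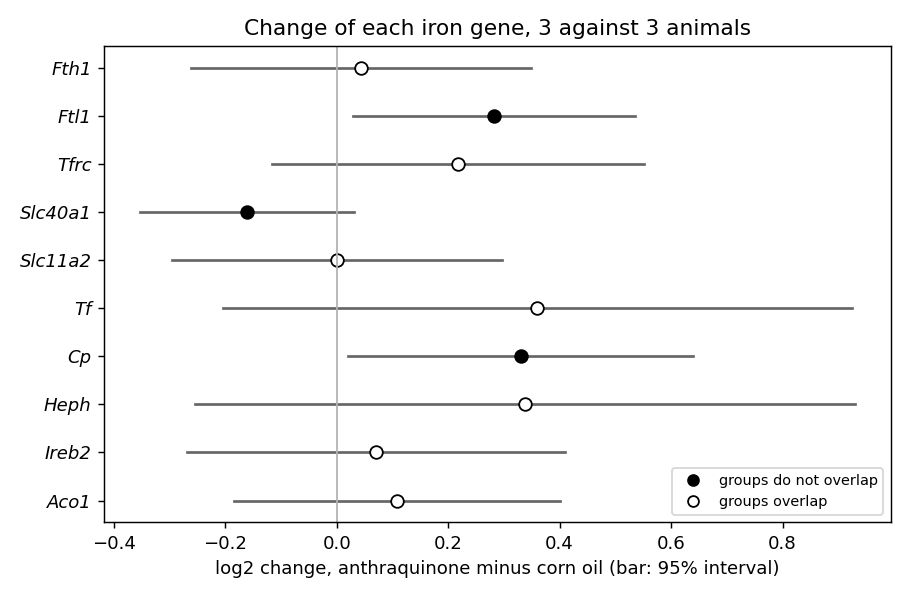
Log2 change of each gene on its brightest probe, anthraquinone minus corn oil, with bars for the 95% interval. Filled points mark genes whose groups do not overlap. The intervals of Ftl1 and Cp lie above 0 before adjustment over all entries, and those of the other 8 genes include 0.

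A wider list of 55 other genes of iron and haem handling was read from the same fit. Of these 46 were tested, 1 rose and 0 fell, where 0.0153% of all entries rose and 0.0122% fell. The median log2 change of the 46 was 0.07. Among the others, Pcbp1, Fbxl5 and Flvcr1 could not be matched to a probe, while Tfr2, Hephl1, Ltf, Cd163 and Epo were not well above background on all arrays of either group.

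The gene that rose was Hmox1, which encodes the enzyme that opens the haem ring and frees its iron. It had log2 levels of 0.80, 0.52 and 0.61 with anthraquinone, against -1.78, -1.30 and -1.40 with corn oil, 4.40-fold higher (limma adjusted p = 0.0311). It did not pass within the shared slide (1.99, limma adjusted p = 0.0929) or with any array left out, where the change was between 1.99 and 2.23 (limma adjusted p between 0.0528 and 0.126). Blvrb, which encodes biliverdin reductase B, was higher by 0.43 ± 0.10 (SE) without overlap and did not pass (limma adjusted p = 0.191). Blvra, the other biliverdin reductase gene, had a value of -0.20. Hmox2, the constitutive haem oxygenase gene, had -0.07 and the haem transporter gene Slc48a1 0.24.

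Among genes around ferritin delivery, Ncoa4, which encodes the receptor that carries ferritin to lysosomes, had a value of 0.19 and the iron chaperone gene Pcbp2 0.09. In the hepcidin axis, the haemochromatosis gene Hfe was higher by 0.43 ± 0.16 (SE, limma adjusted p = 0.264) without overlap on its brightest probe. The mean of its probes gave 0.12 (limma adjusted p = 0.77), and the brightest probe gave 0.27 when anthraquinone replicate 2 was dropped. Hamp, which encodes hepcidin, had 0.21 at a low level. Among ferrireductases Cybrd1 had 0.56 ± 0.21 (SE, limma adjusted p = 0.272) with overlapping groups, Steap2 -0.03 and Steap3 -0.32. The Steap3 value was between -0.62 and -0.13 with an array left out, and 0.032 with normexp background correction. Slc39a8, which encodes a zinc and iron importer, had log2 levels of 2.13, 1.94 and 1.70 with anthraquinone and 2.90, 2.73 and 2.28 with corn oil. It was lower without overlap, with a change of -0.71 ± 0.19 (SE, limma adjusted p = 0.202), and the related Slc39a14 had -0.02.

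The 2 mitochondrial iron importer genes pointed in opposite directions. Slc25a37, which encodes the mitoferrin that developing red cells use, was higher without overlap by 0.40 ± 0.16 (SE, limma adjusted p = 0.277), beside the red cell markers described above. With an array left out it was 0.23 to 0.51, lowest without anthraquinone replicate 1. The mean of its probes gave 0.29 (limma adjusted p = 0.216). The part of red cell RNA in the Slc25a37 value was not tested. Slc25a28, the mitoferrin gene of other tissues, was lower without overlap by -0.23 ± 0.08 (SE, limma adjusted p = 0.249), and the difference between them was not tested. Iscu, the scaffold gene of iron-sulfur clusters, had levels of 4.53, 4.63 and 4.53 with anthraquinone and 4.30, 4.31 and 4.34 with corn oil, a change of 0.25 ± 0.07 (SE, limma adjusted p = 0.207), or 0.15 after quantile normalization. Receptors that take up iron-carrying proteins had values of -0.20 for Lrp2 and 0.09 for Cubn, which encode megalin and cubilin of the proximal tubule, and 0.13 for the ferritin receptor gene Scara5. The iron-binding and haem-scavenging genes Lcn2, Hp and Hpx had 0.19, -0.02 and 0.12, and Epas1, the hypoxia factor gene that regulates iron transport, 0.09.

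**Figure D4:**
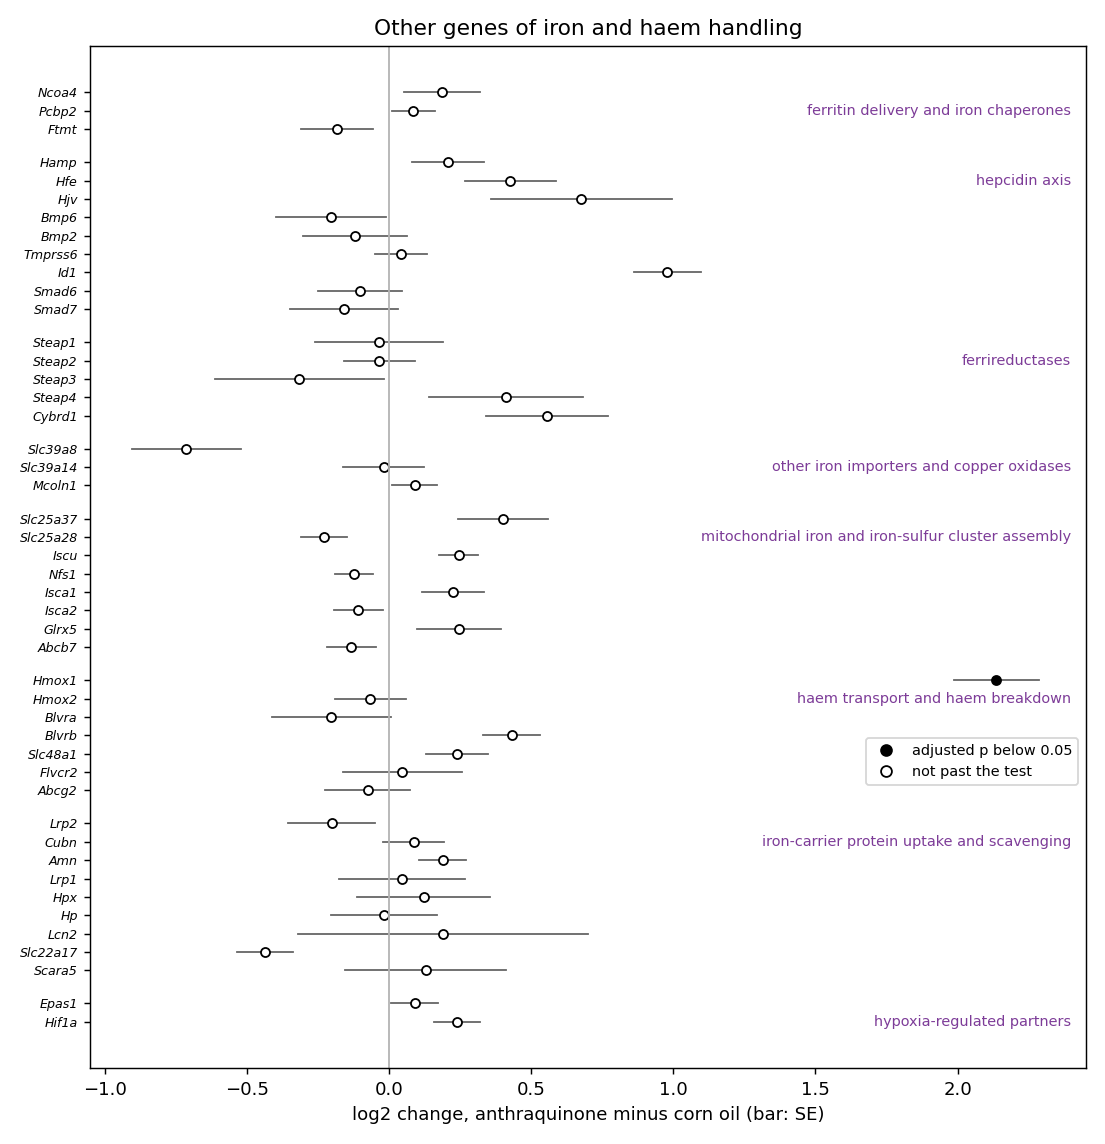
Log2 change of the 46 tested genes of the wider list, anthraquinone minus corn oil, grouped by role, with bars for the standard error. The filled point is Hmox1 at 2.14, the only gene of the list past the test, and Slc39a8 lies lowest at -0.71.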

How the data were processed

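Renal cortex RNA of 6 rats was read on 1-colour arrays. The deposited scanner files hold spot intensity on a linear scale, which the scanner software, Agilent Feature Extraction, had corrected for background and spatial trend. Its version was 10.7.1.1 per the file headers. A second deposited file lists intensity values per probe. Set against the scanner values, 90.7 to 97.0% of its probes per array lay within 0.01 log2 of the processed intensity over that array's 75th percentile, so it is linear and not centred. Its column medians were 0.109, 0.111 and 0.110 for anthraquinone and 0.109, 0.113 and 0.114 for corn oil.

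Outlier spots were dropped. Tests covered the probes that every array of 1 group or both held well above background (41310 of 61657), and accessions were matched to the RefSeq table of GRCr8 for names (27460 probes). The arrays were designed on another build, so no probe positions are given, and the positions of the printed sequences are those of GRCr8. The brightest probe stood for a gene. Groups were compared with limma 3.58.1 under R 4.3.3, without covariates, and p-values were adjusted over all 32663 entries, 11831 of them named. All members and a set list of genes from the wider list were named, whatever their result, except 1 that is not reported here, with any gene of that list past the test. Others were chosen after their values were seen. The members and lists were chosen with earlier results of these data known. The procedure was tested on simulated data. Alternatives covered scaling, background, filter, probe choice, variance model, slide, replicate number, threshold and each array left out.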

Additional observations from a re-analysis of the deposited data

How the results depend on the processing

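No member passed the test under any of the 17 alternatives. Over all entries 9 were called, against 16 with normexp, 6611 without the filter on dim probes (6053 higher and 558 lower), 81 with the trended robust variance model, 2 with the slide as a block, 1 with the replicate block, 54 at a threshold of 0.1 and between 1 and 32 with an array left out (1 when anthraquinone replicate 2 was dropped, and 2, 5 and 32 when corn oil replicates 1, 2 and 3 were dropped in turn). Of the wider list 1 was called, against 3 without the filter, 2 with the trended robust model, 2 at a threshold of 0.1, and 0 with the slide as a block, with the replicate block and with any array left out. Normexp was run on median spot signals, which are what the files hold. Same-numbered animals had deviations correlated at 0.03, -0.06 and -0.01, so the numbers share only a label, and the replicate block gave 0 members called and left Hmox1 at limma adjusted p = 0.191.

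Ftl1, Tfrc, Slc40a1, Tf, Cp and Heph kept their direction under all alternatives. The sign turned for Fth1 with quantile normalization (-0.11) and the slide block (-0.077), with values from -0.077 to 0.12 over left-out arrays. For Slc11a2 it turned with quantile normalization (-0.10), normexp (-0.023 for the gene and for its probe), the deposited value table (-1e-04) and the slide block (-0.031), with -0.072 to 0.10 over left-out arrays. Aco1 had -0.062 with quantile normalization, and Ireb2 -0.039 to 0.20 over left-out arrays. In the wider list Steap3 had 0.032 with normexp, Steap2 0.01 with the slide block and Cubn -0.052 with quantile normalization. Slc39a14 had 0.0065 with quantile normalization, 0.01 with median scaling, 0.064 with normexp, 0.077 for the mean of probes and 0.12 with the slide block, and Hp 0.0136, 0.0116 and 0.0153 with the first 3 of these and 0.0068 with the slide block. Over left-out arrays the range was -0.15 to 0.042 for Steap2, -0.13 to 0.12 for Slc39a14, -0.0055 to 0.16 for Cubn, -0.13 to 0.19 for Hp, -0.14 to 0.061 for Hmox2, -0.17 to 0.74 for Lcn2, -0.10 to 0.35 for Hpx and -0.087 to 0.38 for Scara5. The cause was not tested for any of these, and dim probes limit what can be read of Hamp, Steap3 and Hpx.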

Other observations

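Of the wider list, 2 genes outside those fixed for naming were picked after their values were seen. Id1, a transcriptional inhibitor gene and a target of bone morphogenetic protein signalling, which also drives hepcidin in liver, had log2 levels of 1.63, 1.75 and 1.82 with anthraquinone, against 0.83, 0.53 and 0.89 with corn oil. Its change was 0.98 ± 0.12 (SE, limma adjusted p = 0.0983), and at the 0.05 threshold it passed with the trended robust variance model (limma adjusted p = 0.0278) and without the filter on dim probes (limma adjusted p = 0.0199), and under none of the other alternatives. Smad6 and Smad7, other targets of that signalling on the list, had values of -0.10 and -0.16. Slc22a17, which encodes the lipocalin 2 receptor, had levels of 3.16, 2.95 and 2.84 with anthraquinone and 3.43, 3.42 and 3.41 with corn oil, a change of -0.44 ± 0.10 (SE, limma adjusted p = 0.191). At the 0.05 threshold it passed without the filter on dim probes (limma adjusted p = 0.0497) and under none of the other alternatives. Without that filter 6611 of 49481 entries passed, and with the trended robust model 81 of 32663 did.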
